A study of Arabidopsis thaliana with 15 samples.

Results

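The comparison described here is the difference between 2 responses of Arabidopsis thaliana roots, the response to NaCl and the response to mannitol, for every gene with enough reads. It used 12 of the 15 libraries of the series, 3 in each of 4 groups: mock, salt (150 mM NaCl), mannitol control (untreated) and mannitol (300 mM). All were the Col-0 wild type, and the remaining 3 libraries, of a flagellin peptide treatment, were left out of this comparison. According to the methods, each library came from the pooled roots of 6-day-old seedlings taken 3 h after treatment, whereas the labels give whole seedlings as the tissue. For imaging, the methods describe salt in liquid medium and mannitol on plates, each with its own untreated group. Nothing more is given on how the untreated groups of the RNA experiment were handled, so growth set-up, handling and experiment cannot be told apart from the contrast of salt with mannitol. Nothing states that replicates were separate cultures, so every p-value measures only the spread between these libraries.

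NaCl and mannitol both lower the water potential around a root, and NaCl alone also brings sodium and chloride ions. Plants answer the water deficit that both cause through abscisic acid (ABA), a hormone that relieves clade A protein phosphatases from blocking SnRK2 kinases, which then activate ABF transcription factors. These bind ABA-responsive elements (ABRE), while DREB factors bind dehydration-responsive elements (DRE). Ion stress is handled by a separate route, in which SOS3 and SOS2 activate the sodium exporter SOS1, NHX exchangers load sodium into vacuoles and HKT1 retrieves it from the xylem.

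For each gene the response difference was the log2 change from mock to salt minus the log2 change from the mannitol control to mannitol. A positive value means that the gene went further up, or less far down, in salt than in mannitol. The same number equals the gap between salt and mannitol minus the gap between mock and mannitol control, so an unequal start contributes as much as an unequal end. Levels are CPM, reads relative to the size of the library after TMM scaling, listed in the order of replicates A, B and C, and each log2 value is given with its standard error, with 3 libraries in each group. Genes were called where the edgeR quasi-likelihood test gave an adjusted p-value (Benjamini-Hochberg over 19363 genes) below 0.05 and the log2 value was at least 1 in size.

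Depth ranged from 6094503 to 13943645 counts per library, and 2 of the mock libraries were the shallowest, so a level of 3 counts corresponds to 0.205 to 0.463 CPM. The summed level of 20 root identity markers was 5408 to 5512 CPM in mock, 5311 to 5675 in salt, 11420 to 12427 in the mannitol control and 6622 to 7938 in mannitol. Most of it was PYK10, an abundant root beta-glucosidase. The summed level of 14 leaf and guard cell markers was 159 to 222 CPM in mock, 71.3 to 172 in salt, 125 to 151 in the mannitol control and 176 to 196 in mannitol. Their part in the results was not tested. In such bulk samples, fewer cells of a type and less RNA per cell cannot be told apart.

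The responses to NaCl and mannitol differed at 1799 of 19363 genes tested (9.29%). In 1013 genes (5.23%) the difference was positive, and in 786 (4.06%) it was negative. The salt response alone gave 1956 genes higher (10.1%) and 1589 lower (8.21%) than mock. Mannitol gave 1758 higher (9.08%) and 1440 lower (7.44%) than its control. The untreated groups were themselves unlike, with 1276 genes higher (6.59%) and 1358 lower (7.01%) in mock than in the mannitol control. Between the treated groups, 727 genes were higher (3.75%) and 834 lower (4.31%) in salt than in mannitol. The median response difference over all genes tested was 0.02.

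**Figure D1:**
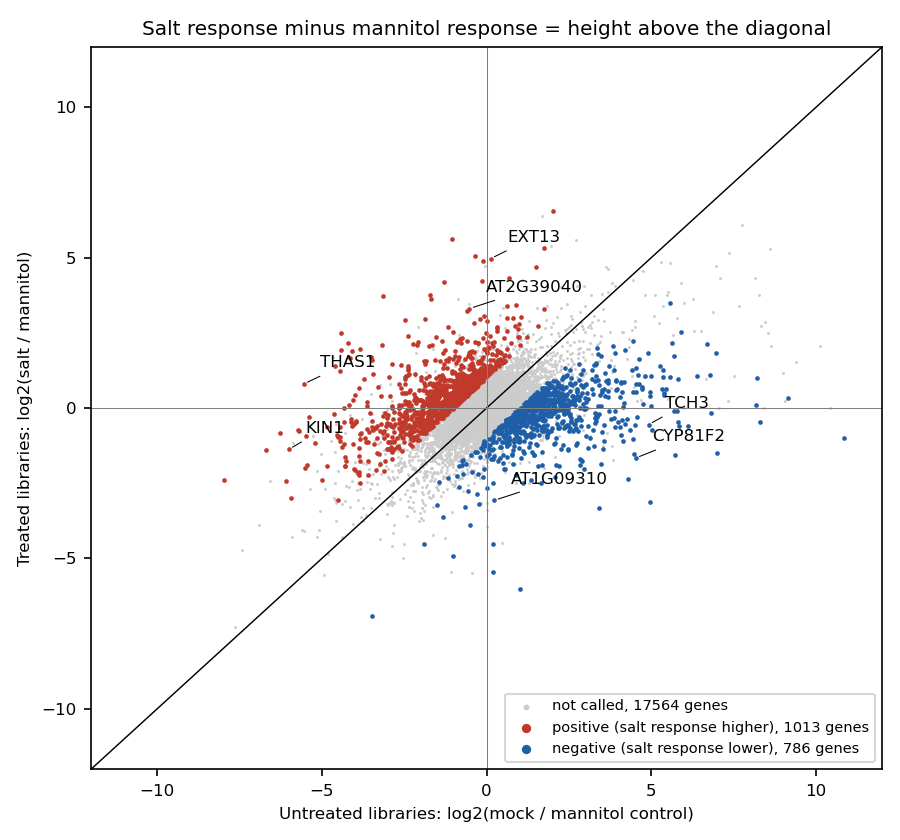
Each point is a gene: the horizontal axis is the log2 difference of mock and mannitol control, the vertical axis the log2 difference of salt and mannitol, and called genes are coloured by the sign of their response difference. A gene's response difference is its height above the diagonal. Of the positive genes 466 lay at least 1 from 0 only along the horizontal axis, against 183 only along the vertical axis.

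Most called genes were separated by their untreated rather than by their treated levels. Of the 1013 positive genes, 466 (46%) differed by at least 1 on the log2 scale between the untreated groups only, 183 (18.1%) between the treated groups only, 138 (13.6%) in both and 226 (22.3%) in neither. Of the 786 negative genes the untreated groups alone differed so in 491 (62.5%), the treated groups alone in 80 (10.2%), both in 101 (12.8%) and neither in 114 (14.5%). All mock libraries lay below all mannitol control libraries in 817 of the positive genes, against 29.1% of all genes tested, and above them in 686 of the negative genes, against 24.7%. All salt libraries lay above all mannitol libraries in 471 of the positive genes, against 20.4% of all, and below them in 266 of the negative genes, against 21.3%. Since the interaction and the untreated contrast share the same libraries, these counts describe where each difference lay and are not tests.

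**Figure D2:**
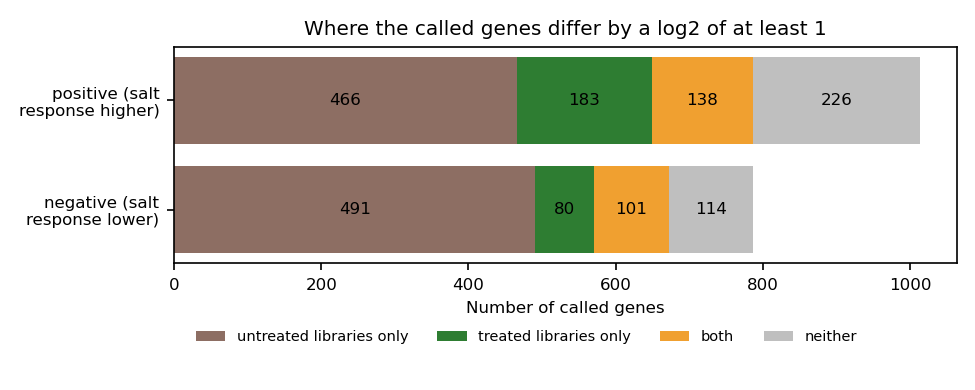
Stacked bars give the number of called genes, positive and negative, by where a gap of at least 1 on the log2 scale lay: between the treated groups, between the untreated groups, in both or in neither. The untreated class is the largest for both signs, with 466 and 491 genes.

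The positive genes were mainly of 3 kinds. In 362 genes salt raised the level and mannitol gave no call, in 236 mannitol lowered it and salt gave no call, and in 191 both raised it with a larger rise in salt. Opposite calls, up in salt and down in mannitol, were made for 28. Among the negative genes, 316 were lower in salt with no call in mannitol, 205 were higher in mannitol with no call in salt, and 57 were lower in salt and higher in mannitol. Because no call is not evidence of no change, these classes sort the genes by what passed the test.

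Protective proteins of dehydration rose in both treatments. Late embryogenesis abundant (LEA) proteins, dehydrins and related desiccation genes had median responses of 4.26 to salt and 2.75 to mannitol, and of the 31 genes tested 27 rose in salt and 27 in mannitol. Response differences were positive in 10 (32.3%, against 5.23% of all genes) and negative in 2 (6.45%, against 4.06%). Their median was 0.77 against 0.02 for all genes. The untreated level of 14 of the 31 was lower in mock than in the mannitol control, and 9 were lower in salt than in mannitol, against 0 higher. Among the 12 called genes the gap lay between the untreated groups in 9, in both places in 1 and in neither in 2.

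KIN1, a small cold- and ABA-inducible protein, had the largest difference of the list. It was at 3.09, 8.59 and 5.99 CPM in mock, at 940.02, 788 and 696 in salt, at 459, 313 and 364 in the mannitol control and at 2304, 2001 and 1968 in mannitol. In KIN1 all 3 mock libraries lay below all 3 of the mannitol control, and all 3 salt libraries lay below all 3 of mannitol. The response difference was 4.63 ± 0.32 (edgeR adjusted p = 2.55e-06), from a salt response of 7.09 ± 0.27 and a mannitol response of 2.47 ± 0.20. RD29A, a hydrophilic protein long used as a reporter of osmotic stress, was at 40.4, 38.2 and 36.3 CPM in mock, at 6586, 5873 and 4276 in salt, at 421, 317 and 323 in the mannitol control and at 4688, 4266 and 3834 in mannitol. Here all 3 mock libraries lay below all 3 of the mannitol control, and salt and mannitol overlapped. Its response difference of 3.598 ± 0.22 (edgeR adjusted p = 1.27e-07) therefore lay on the untreated side.

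The 250 bases before the annotated start of each gene are shown because KIN1 and RD29A carry the core letters of the elements named above, and CYP81F2, the defense gene with one of the largest negative differences, carries those bound by WRKY factors. Coordinates are TAIR10.1, with sequence and annotation from RefSeq, and every gene lies on the plus strand of chromosome 5. Capitals mark ACGTG (ABRE core), CCGAC (DRE core) or TTGAC (W-box core) on either strand, and no marked motif overlaps another.
KIN1, chr5:5209467-5209716: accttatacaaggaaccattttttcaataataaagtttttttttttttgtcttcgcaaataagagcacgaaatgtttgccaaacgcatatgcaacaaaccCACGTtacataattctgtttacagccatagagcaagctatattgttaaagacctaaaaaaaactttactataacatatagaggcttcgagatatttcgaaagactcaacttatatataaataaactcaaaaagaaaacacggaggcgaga
RD29A, chr5:21240467-21240716: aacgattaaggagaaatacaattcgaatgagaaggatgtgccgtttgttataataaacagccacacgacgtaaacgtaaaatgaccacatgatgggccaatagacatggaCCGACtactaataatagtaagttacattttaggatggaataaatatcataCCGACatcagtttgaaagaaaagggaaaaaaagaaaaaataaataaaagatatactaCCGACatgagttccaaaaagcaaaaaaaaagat
CYP81F2, chr5:23187590-23187839: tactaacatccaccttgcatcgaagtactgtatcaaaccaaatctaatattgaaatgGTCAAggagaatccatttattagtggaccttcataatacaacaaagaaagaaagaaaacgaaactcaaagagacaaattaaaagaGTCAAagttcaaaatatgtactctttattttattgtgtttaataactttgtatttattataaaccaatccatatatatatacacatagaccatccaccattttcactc

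KIN1 held 1 ABRE core, RD29A 3 DRE cores and CYP81F2 2 W-box cores in these windows. Of the LEA list, 61.3% of promoters held an ABRE core and 45.2% a DRE core, against 24% and 12.9% of all 19362 promoters of that length. Called genes were nearer to all genes: an ABRE core was in 28.4% of positive and 29.6% of negative genes, a DRE core in 13.7% and 11.2%, and a W-box core in 48.4% and 56.4% against 45.3% of all. A match is only a run of letters and no evidence of binding.

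Other classical desiccation genes responded strongly to both treatments without a call on the difference in the fit of the 12 libraries. RD29B, a close relative of RD29A, was at 0.154 to 1.99 CPM in mock and 1.06 to 1.54 in the mannitol control, and rose to 170.1 to 233 in salt and 439 to 649.6 in mannitol. Its response difference was -0.67 ± 0.76 (edgeR adjusted p = 0.615). The dehydrin RAB18 and COR15A, which protects chloroplast membranes, held too few reads in mock for a size. RAB18 rose to 45.3 to 85.2 CPM in salt and 114 to 197 in mannitol, from 0 to 0.767 in mock and 0.8198 to 1.95 in the control. COR15A rose to 29.3 to 55.9 CPM in salt and 83.3 to 136 in mannitol, from 0 to 0.154 in mock and 1.37 to 3.41 in the control. Its difference was called positive with DESeq2's Wald test (adjusted p = 0.0188) and with the replicate letter as a block. The 2 negative members were ERD6, a sugar transporter, at -1.2 ± 0.26, and the dehydrin XERO1 at -1.39 ± 0.45, and XERO1 lost its call without any 1 of mannitol control B2, mannitol control C2, mannitol A, mannitol B, mannitol C, mock A, mock C, salt B and salt C (highest adjusted p = 0.137). The negative count fell to 1 without any 1 of mannitol control B2, mannitol control C2, mannitol A, mannitol C, mock C and salt B.

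NCED3, the cleavage enzyme that limits ABA synthesis, rose in both treatments and further in salt. It was at 2.62, 3.07 and 1.31 CPM in mock, at 314, 292 and 234 in salt, at 9.43, 11.3 and 11.6 in the mannitol control and at 216, 207 and 162 in mannitol. For this gene all 3 mock libraries lay below all 3 of the mannitol control, and all 3 salt libraries lay above all 3 of mannitol. The response difference was 2.87 ± 0.31 (edgeR adjusted p = 3.64e-05), with a salt response of 7.04 ± 0.23 and a mannitol response of 4.17 ± 0.18. NCED2, of the same family, was called as well at 2.52 ± 0.76 (edgeR adjusted p = 0.0331). These were the 2 called of 10 tested, both positive (20%, against 5.23% of all genes). The count fell to 1 without any 1 of mannitol control A2, mannitol B, mannitol C, mock A, mock C, salt A and salt B. CYP707A1, which breaks ABA down, rose in both treatments, and its difference of 0.89 ± 0.25 (edgeR adjusted p = 0.024) was below the size required except without mock B. NCED2 lost its call without any 1 of mannitol control A2, mannitol control B2, mannitol B, mannitol C, mock A, mock C, salt A and salt B (highest adjusted p = 0.0997).

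Of 26 genes of ABA perception and signalling, 14 rose in salt and 15 in mannitol. Among them 2 response differences were positive (7.69%, against 5.23% of all genes) and 3 negative (11.5%, against 4.06%). ABF3, a transcription factor that binds ABRE, was at 65.3, 75.9 and 55.1 CPM in mock, at 384, 369 and 352 in salt, at 182, 168 and 209 in the mannitol control and at 425, 446 and 398 in mannitol. In ABF3 all 3 mock libraries lay below all 3 of the mannitol control, and all 3 salt libraries lay below all 3 of mannitol, and the response difference was 1.32 ± 0.15 (edgeR adjusted p = 3.19e-05). The phosphatase HAI1, a negative regulator of the pathway, was at 0.926, 4.29 and 1.07 CPM in mock, at 189, 194 and 168 in salt, at 14.5, 13.5 and 14.1 in the mannitol control and at 500.01, 540.3 and 466 in mannitol. Its response difference was 1.43 ± 0.39 (edgeR adjusted p = 0.0224), although its level in all salt libraries lay below that in all mannitol libraries. The receptors PYL5 and PYL6 went the other way. PYL5 was at 205, 107 and 203 CPM in mock, at 51.1, 39.9 and 22.4 in salt, at 30.2, 33.9 and 33 in the mannitol control and at 28.1, 18.3 and 23.6 in mannitol. Its response difference was -1.71 ± 0.46 (edgeR adjusted p = 0.0274) and that of PYL6 -2.02 ± 0.53 (edgeR adjusted p = 0.0234), each with mock far above the mannitol control. PYL5 lost its call without any 1 of mannitol control A2, mannitol control B2, mannitol control C2, mannitol A, mannitol C, mock A, mock C and salt B (highest adjusted p = 0.0744), and PYL6 without mannitol A (highest adjusted p = 0.0848). HAI1 lost it without any 1 of mannitol C, mock A, mock C, salt A and salt B (highest adjusted p = 0.0945), when 1 positive gene was left, and without salt A 5 negative ones were called.

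Stress transcription factors were called in both directions, 6 positive (17.1%, against 5.23% of all genes) and 5 negative (14.3%, against 4.06%) of 35 tested. HB12, a homeodomain factor of the ABA response, was at 0.463, 1.07 and 0.154 CPM in mock, at 144, 146 and 146 in salt, at 9.35, 7.04 and 7.22 in the mannitol control and at 123, 125 and 113 in mannitol. For HB12 all 3 mock libraries lay below all 3 of the mannitol control, and all 3 salt libraries lay above all 3 of mannitol. The gap was wider between the untreated groups, and the response difference was 4.32 ± 0.33 (edgeR adjusted p = 5.4e-07). MYB74, another osmotic stress factor, was at 2.93 ± 0.29 (edgeR adjusted p = 9.77e-06) on the same side. ANAC055, a NAC factor of the ABA and jasmonate responses, was at 9.72, 9.81 and 5.91 CPM in mock, at 17.2, 25.5 and 20.3 in salt, at 0.813, 0.751 and 1.52 in the mannitol control and at 25.6, 19.99 and 19.1 in mannitol. Here all 3 mock libraries lay above all 3 of the mannitol control, and salt and mannitol overlapped, and the response difference was -3.02 ± 0.37 (edgeR adjusted p = 6.08e-05). MYB15 was likewise negative at -2.999 ± 0.59 (edgeR adjusted p = 0.00273). DREB2A, the DRE-binding factor of drought, was raised by both treatments and its difference of 0.405 ± 0.19 (edgeR adjusted p = 0.172) was not called.

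**Figure D3:**
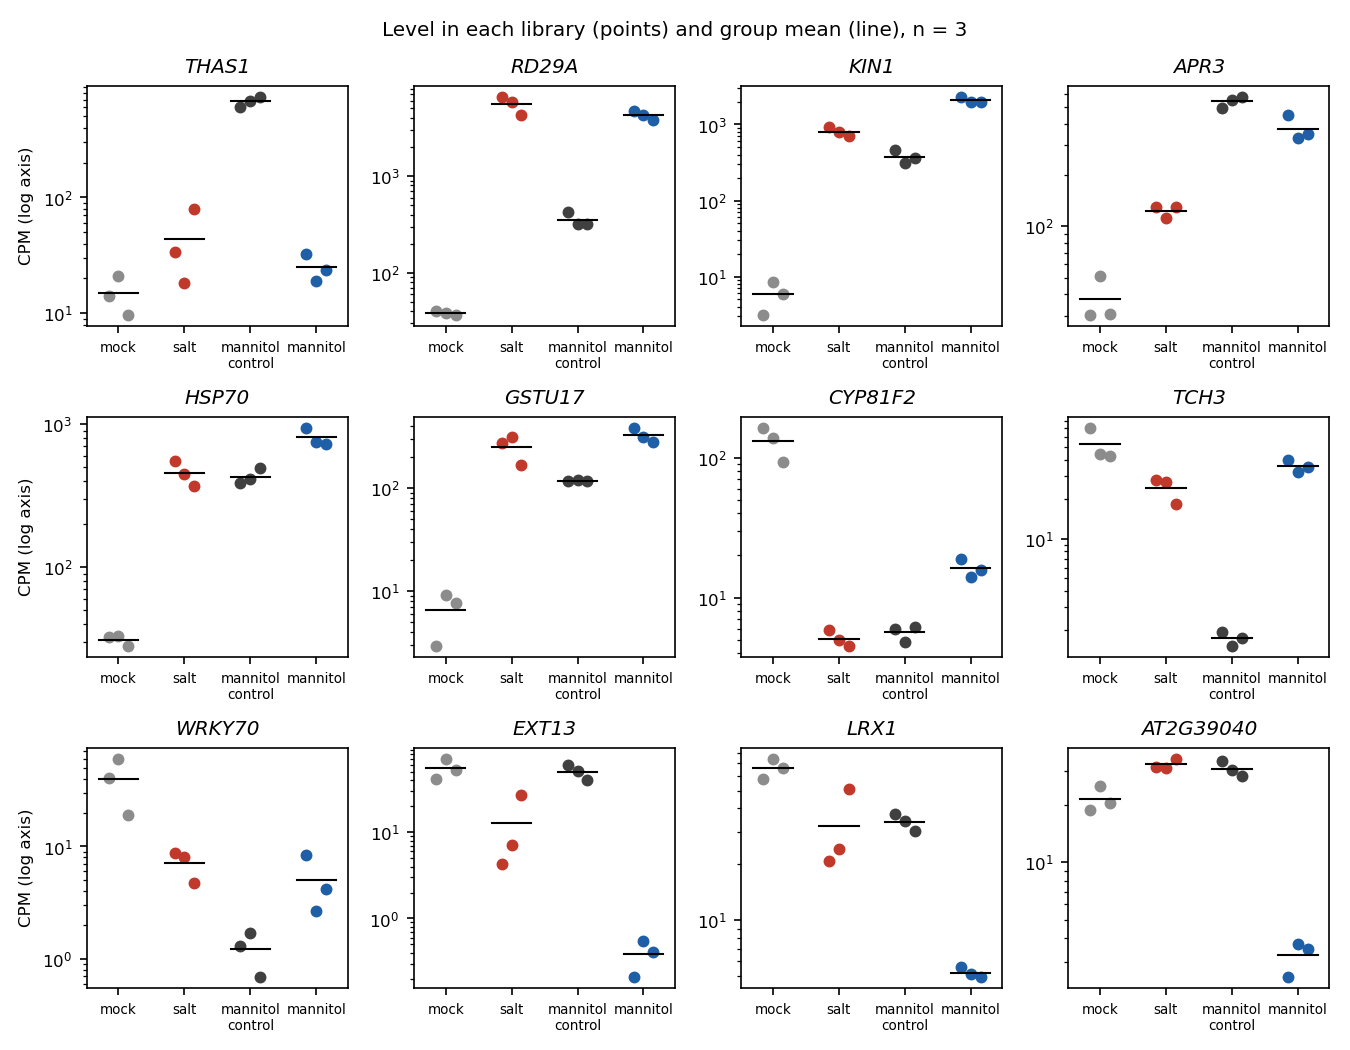
CPM on a log axis for 12 genes, with 1 point per library and a line at the group mean, in mock, salt, mannitol control and mannitol. RD29A ends at 4276 to 6586 CPM in salt and 3834 to 4688 in mannitol from untreated levels of 36.3 to 40.4 and 317 to 421, whereas EXT13 begins alike and drops to 0.207 to 0.548 in mannitol.

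Root triterpene genes had the largest median difference of any list. The genes that make thalianol and those that make marneral, specialised metabolites of the root, lie in separate clusters on chromosome 5. Of 9 tested, 6 were positive (66.7%, against 5.23% of all genes). The median response difference was 5.29, from median responses of 1.56 to salt and -2.202 to mannitol. The entries THAA1 and THAA2 found no locus and were left out. The members PEN1 and CYP705A1, from another cluster on chromosome 4, fell in both treatments and had differences of -0.09 ± 0.15 and 0.17 ± 0.19, neither of them called.

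THAS1, thalianol synthase (chr5:19456837-19461706), was at 14.04, 21.2 and 9.598 CPM in mock, at 33.7, 18.1 and 79.9 in salt, at 602, 684 and 737 in the mannitol control and at 32.7, 19.1 and 23.8 in mannitol. In this gene all 3 mock libraries lay below all 3 of the mannitol control, and salt and mannitol overlapped, with salt C above the other salt libraries. The response difference was 6.35 ± 0.74 (edgeR adjusted p = 0.000464), from a salt response of 1.602 ± 0.54 and a mannitol response of -4.75 ± 0.53. CYP705A5, which acts on thalianol after its hydroxylation, gave 5.79 ± 0.73 (edgeR adjusted p = 0.000716), and CYP708A2, the hydroxylase, 4.41 ± 0.64 (edgeR adjusted p = 0.00146). AT5G47980, an acyltransferase of the HXXXD type in the same region (chr5:19428888-19430517), was not in the list. The annotation used here did not tie the names THAA1 and THAA2 to any locus, so AT5G47980 may be 1 of those entries. It was at 5.09, 3.07 and 2.15 CPM in mock, at 1.87, 2.11 and 7.32 in salt, at 61.5, 72.7 and 73.4 in the mannitol control and at 1.55, 0.456 and 0.981 in mannitol. Its response difference was 6.34 ± 0.75 (edgeR adjusted p = 0.000243), and mannitol lowered it while the salt response was not called.

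In the marneral cluster, MRN1, marneral synthase (chr5:17053453-17058245), was at 0.772, 0.767 and 0.0768 CPM in mock, at 21.9, 14.6 and 87.3 in salt, at 10.7, 6.97 and 10.7 in the mannitol control and at 11.1, 6.39 and 4.82 in mannitol. For MRN1 all 3 mock libraries lay below all 3 of the mannitol control, and all 3 salt libraries lay above all 3 of mannitol, and salt C was again the highest. The response difference was 6.91 ± 1.39 (edgeR adjusted p = 0.00848), with a salt response of 6.54 ± 1.104 and a mannitol response of -0.37 ± 0.72. The mock level of MRN1 was near the floor, and mock C lay below the 0.230 CPM of 3 counts in that library. The size of the difference thus rests on few mock reads, and it ran from 5.73 to 7.36 over the alternatives. CYP705A12 (chr5:17023502-17025361) was at 2.01, 2.61 and 1.996 CPM in mock, at 22.2, 20.5 and 40.97 in salt, at 45.2, 34.98 and 39.9 in the mannitol control and at 9.43, 3.38 and 5.88 in mannitol. It gave 6.38 ± 0.53 (edgeR adjusted p = 2.07e-05), with a salt response of 3.68 ± 0.42 and a mannitol response of -2.699 ± 0.33. CYP71A16, the marneral oxidase, gave 5.29 ± 0.40 (edgeR adjusted p = 1.22e-05). The count of 6 positive genes stayed within 1.5 times when any 1 library was left out.

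Of 33 genes of sulfate uptake, sulfur assimilation and the sulfur deficiency response, 11 were positive (33.3%, against 5.23% of all genes), all of those called. The gap lay between the untreated groups in 3, in both places in 7 and between the treated groups in 1. Mock was lower than the mannitol control in 17 of the 33, and salt lower than mannitol in 13. SDI1, a repressor of glucosinolate synthesis under low sulfur, was at 0.463, 0.767 and 0.2303 CPM in mock, at 6.09, 7.06 and 4.25 in salt, at 15.7, 23.3 and 29.1 in the mannitol control and at 14.4, 6.02 and 9.23 in mannitol. Here all 3 mock libraries lay below all 3 of the mannitol control, and salt and mannitol overlapped, and the response difference was 4.94 ± 0.67 (edgeR adjusted p = 0.000309). LSU2, a small protein of the low sulfur response, was at 0.309, 2.3 and 0.845 CPM in mock, at 6.09, 4.95 and 4.25 in salt, at 55.4, 64.5 and 79.9 in the mannitol control and at 48.1, 26.6 and 45.7 in mannitol. Its salt libraries stayed below every mannitol library even though its response difference was 2.95 ± 0.58 (edgeR adjusted p = 0.00459). APR3, an enzyme that reduces activated sulfate, gave 2.27 ± 0.25 (edgeR adjusted p = 7.01e-05). Its means were 37.4 CPM in mock, 124 in salt, 542 in the mannitol control and 375 in mannitol, so salt stayed below mannitol. SULTR1;2, the main sulfate importer of roots, was the exception in that its gap lay between the treated groups. It was at 354, 392.5 and 341 CPM in mock, at 605, 536 and 406 in salt, at 428, 373 and 431 in the mannitol control and at 296, 165 and 158 in mannitol. Its untreated groups overlapped, all salt libraries lay above all mannitol libraries, and the response difference was 1.502 ± 0.32 (edgeR adjusted p = 0.00746).

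Of 26 suberin and Casparian strip genes, 21 rose in salt and 15 in mannitol, and 8 response differences were positive (30.8%, against 5.23% of all genes). Suberin is the waxy polymer of the endodermis that limits water and ion flow. The list had median responses of 1.89 to salt and 1.26 to mannitol. ASFT, which adds ferulate to suberin, was at 96.9, 98.3 and 67.6 CPM in mock, at 1005, 1079 and 699 in salt, at 268, 284 and 298 in the mannitol control and at 1271, 835 and 843 in mannitol. For ASFT all 3 mock libraries lay below all 3 of the mannitol control, and salt and mannitol overlapped, and the response difference was 1.62 ± 0.29 (edgeR adjusted p = 0.00268). MYB41, a regulator of suberin genes, gave 1.98 ± 0.32 (edgeR adjusted p = 0.000934), and MYB39, another such regulator, 2.68 ± 0.40 (edgeR adjusted p = 0.000318). GPAT5, an acyltransferase of the same pathway, rose in both and had an uncalled difference of 0.32 ± 0.37 (edgeR adjusted p = 0.624). Only 5 of the list were positive without mannitol control B2, mannitol control C2 or mannitol B, and 3 without mannitol C, salt A or salt B.

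Phenylpropanoid, lignin and flavonoid enzymes had 9 positive (28.1%, against 5.23% of all genes) and 1 negative (3.12%, against 4.06%) of 32 tested. PAL1, the entry enzyme, was at 689, 904 and 639.9 CPM in mock, at 1844, 1969 and 1432 in salt, at 1408, 1554 and 1595 in the mannitol control and at 1952, 1660.4 and 1488 in mannitol. In PAL1 all 3 mock libraries lay below all 3 of the mannitol control, and salt and mannitol overlapped, and its difference was 1.07 ± 0.20 (edgeR adjusted p = 0.00206). TT7, a flavonoid hydroxylase, fell in mannitol from a high control, with a salt response of 0.796 ± 0.12 and a mannitol response of -1.49 ± 0.11 and a difference of 2.28 ± 0.16 (edgeR adjusted p = 2.71e-07). 4CL3, a ligase that feeds flavonoid synthesis, fell likewise and gave 2.66 ± 0.27 (edgeR adjusted p = 3.96e-05). PAL1 fell below the size required without any 1 of mannitol C, mock C, salt A and salt B. Without mannitol C, mock C or salt A, 5 were positive, and without salt B the count was 4. The negative gene F6'H1, which acts in the synthesis of the coumarin scopoletin, gave -1.597 ± 0.46 (edgeR adjusted p = 0.0378) and lost its call without any 1 of mannitol control A2, mannitol control B2, mannitol control C2, mannitol A, mannitol C, mock A, salt A, salt B and salt C (highest adjusted p = 0.0968). The negative count was 2 without mannitol B or mock C, 1 without mock A or mock B, and 0 in the other fits without a library.

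Detoxification and protein folding genes were also more often positive. Of 37 tau and phi glutathione transferases, 11 were positive (29.7%, against 5.23% of all genes) and 4 negative (10.8%, against 4.06%). GSTU17 was at 2.93, 9.199 and 7.68 CPM in mock, at 271, 313 and 167 in salt, at 116, 118 and 116 in the mannitol control and at 379.9, 308 and 277 in mannitol. In GSTU17 all 3 mock libraries lay below all 3 of the mannitol control, and salt and mannitol overlapped, and the difference was 3.75 ± 0.42 (edgeR adjusted p = 0.000201). GSTU12 was opposite in sign, with 0.0813 to 0.4099 CPM in the mannitol control against 6.14 to 19.9 in mock. Negative calls fell to 2 without mannitol control A2, mannitol control B2, mannitol A or salt C. Among 40 heat shock factors and chaperones, 6 were positive (15%) and 1 negative (2.5%), and 17 were lower in mock than in the mannitol control. HSP70 (AT3G12580), a cytosolic chaperone, was at 32.6, 32.96 and 27.9 CPM in mock, at 552, 448 and 371 in salt, at 386, 415 and 492 in the mannitol control and at 944, 757 and 734 in mannitol. Its difference was 2.97 ± 0.21 (edgeR adjusted p = 5.88e-07), although salt lay below mannitol in every library. HSFA7A was the negative member, at -2.13 ± 0.32 (edgeR adjusted p = 0.000714), joined by another without any 1 of mannitol control A2, mannitol B, mock C and salt A. Of 31 antioxidant enzymes, 3 were positive (9.68%), among them the glutathione peroxidase GPX6 at 1.14 ± 0.17 (edgeR adjusted p = 0.000276), and 1 was negative without any 1 of mannitol control A2, mannitol B and salt A.

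Root hair genes were the clearest group whose gap lay between the treated libraries. Root hairs are tip-growing outgrowths of epidermal cells, built with extensins, expansins and xyloglucan-modifying enzymes under the transcription factor RSL4. Of 43 genes tested, 11 were positive (25.6%, against 5.23% of all genes) and 1 negative (2.33%, against 4.06%). In 10 of these 12 the treated groups alone differed by at least 1. The median responses were -0.71 to salt and -1.65 to mannitol, and the median gap between untreated groups was 0.11. By their medians, these genes began at similar levels and went lower in mannitol.

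EXT13, an extensin-like wall protein, was at 41.98, 70.99 and 52.6 CPM in mock, at 4.33, 7.16 and 27.04 in salt, at 60, 50.9 and 40.9 in the mannitol control and at 0.207, 0.548 and 0.409 in mannitol. In EXT13 the untreated groups overlapped, and all 3 salt libraries lay above all 3 of mannitol, with salt C well above salt A and B. The response difference was 4.84 ± 1.15 (edgeR adjusted p = 0.0174), from a salt response of -2.11 ± 0.52 and a mannitol response of -6.96 ± 0.85, and it lost its call without mannitol A or mannitol C (highest adjusted p = 0.0544). RSL4 was at 12.7, 11.5 and 12.7 CPM in mock, at 14.8, 14.01 and 17.1 in salt, at 11.8, 7.86 and 8.14 in the mannitol control and at 4.35, 5.202 and 5.15 in mannitol. For RSL4 the untreated groups overlapped, and all 3 salt libraries lay above all 3 of mannitol, and its difference was 1.22 ± 0.24 (edgeR adjusted p = 0.00203). COBL9, a glycosylphosphatidylinositol-anchored protein of hair growth, was at 32.1, 30.4 and 37.2 CPM in mock, at 25.4, 25.3 and 39.4 in salt, at 36.1, 32.2 and 28.3 in the mannitol control and at 10.5, 14.1 and 10.6 in mannitol. It gave 1.3 ± 0.25 (edgeR adjusted p = 0.00195), with a salt response of -0.16 ± 0.17 and a mannitol response of -1.46 ± 0.18. LRX1, an extensin with leucine-rich repeats, gave 1.67 ± 0.43 (edgeR adjusted p = 0.0212), and PRP1, a proline-rich wall protein, 2.51 ± 0.64 (edgeR adjusted p = 0.021). LRX1 lost its call without mannitol B and mannitol C (highest adjusted p = 0.0593), and PRP1 without any 1 of mannitol A, mannitol C and mock C (highest adjusted p = 0.0582).

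Not every root hair gene took part. The expansin EXPA7 was at 51.5 to 61.3 CPM in mock, 49.2 to 74.97 in salt, 35.97 to 54.96 in the mannitol control and 35.8 to 39.99 in mannitol, with a difference of 0.35 ± 0.24 (edgeR adjusted p = 0.379). RHD2, the NADPH oxidase of the hair tip, gave 0.07 ± 0.14 (edgeR adjusted p = 0.777). PER44, a peroxidase, was the negative member at -1.51 ± 0.20 (edgeR adjusted p = 0.00012), from a salt response of -2.04 ± 0.14 and a mannitol response of -0.54 ± 0.14. The number of positive root hair genes fell to 7 without mannitol B or mock C and to 5 without mannitol C. Xyloglucan enzymes XTH12 and XTH13 had mannitol levels at or under 3 counts, so no size is given for them, and they lost their calls in 7 and 9 of the 12 fits without a library, with a highest edgeR adjusted p of 0.0977 for XTH12 and 0.134 for XTH13.

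Wall loosening enzymes in general had 9 positive (19.1%, against 5.23% of all genes) and 2 negative (4.26%, against 4.06%) of 47 tested. XTH32 was at 1.698, 2.91 and 1.84 CPM in mock, at 10.3, 8.64 and 8.15 in salt, at 20.2, 29.1 and 28.7 in the mannitol control and at 17.5, 14.5 and 12.5 in mannitol. Unlike the root hair genes, all 3 mock libraries lay below all 3 of the mannitol control, and all 3 salt libraries lay below all 3 of mannitol, and its difference was 2.92 ± 0.30 (edgeR adjusted p = 1.17e-05). The negative members XTH22, a touch-induced enzyme also called TCH4, and XTH24 gave -1.33 ± 0.31 (edgeR adjusted p = 0.00769) and -1.04 ± 0.28 (edgeR adjusted p = 0.0243), but XTH24 lost its call, and the negative count fell to 1, without any 1 of mannitol control B2, mannitol control C2, mannitol A, mock A and salt C (highest adjusted p = 0.061). Without mannitol control B2, mannitol B or mock A, 5 were positive. Without mannitol C the count was 4, and without mannitol A it was 3. Secreted peroxidases, which oxidise wall polymers, had 8 positive (14.5%) and 3 negative (5.45%) of 55. AT2G39040 was at 18.8, 24.99 and 20.5 CPM in mock, at 31.5, 31.3 and 34.7 in salt, at 33.7, 30.2 and 28.2 in the mannitol control and at 2.49, 3.74 and 3.51 in mannitol. In this gene all 3 mock libraries lay below all 3 of the mannitol control, and all 3 salt libraries lay above all 3 of mannitol, and its difference was 3.83 ± 0.20 (edgeR adjusted p = 4.78e-08). AT2G18150 rose from a mean of 1.51 CPM in mock to 91.98 in salt, and from 10.5 in the mannitol control to 33.2 in mannitol. Its salt response was 5.99 ± 0.31 and its mannitol response 1.67 ± 0.22, with a difference of 4.33 ± 0.40 (edgeR adjusted p = 2.08e-05). AT5G39580 was negative at -3.003 ± 0.56 (edgeR adjusted p = 0.00548).

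Immune genes were mostly negative where called. Of 38 genes of pattern-triggered defense 9 were negative (23.7%) and 1 positive (2.63%). Of 60 WRKY factors 11 were negative (18.3%) and 3 positive (5%). Over all genes the shares were 4.06% negative and 5.23% positive. The median untreated gap was 0.68 in the defense list and 0.59 in the WRKY list, against -0.03 for all genes. By these medians, both lists were higher in mock than in the mannitol control before either treatment. Counts in both lists stayed within 1.5 times when any 1 library was left out.

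CYP81F2, a cytochrome P450 of indole glucosinolate defense, was at 163, 137 and 92.5 CPM in mock, at 5.85, 4.95 and 4.49 in salt, at 6.02, 4.85 and 6.16 in the mannitol control and at 18.9, 14.1 and 15.7 in mannitol. In CYP81F2 all 3 mock libraries lay above all 3 of the mannitol control, and all 3 salt libraries lay below all 3 of mannitol. The response difference was -6.18 ± 0.31 (edgeR adjusted p = 7.82e-08), from a salt response of -4.67 ± 0.22 and a mannitol response of 1.51 ± 0.22. MPK11, a mitogen-activated protein kinase of early immunity, was at 15.9, 13.95 and 6.07 CPM in mock, at 1.64, 1.47 and 0.827 in salt, at 0.0813, 0.615 and 0.304 in the mannitol control and at 3.21, 1.46 and 1.96 in mannitol. Its control libraries were all under 1 CPM and its difference was -5.75 ± 0.74 (edgeR adjusted p = 0.00011). FMO1 and ALD1, enzymes of the pipecolate pathway of systemic resistance, gave -3.96 ± 0.73 (edgeR adjusted p = 0.00174) and -3.58 ± 0.48 (edgeR adjusted p = 0.000103). PBS3, an enzyme of salicylic acid synthesis, was at 25.5, 33.3 and 8.22 CPM in mock and at 0 in all 3 control libraries, so its fold is not given. The positive exception was EDS5, which exports a salicylic acid precursor from plastids, at 1.65 ± 0.13 (edgeR adjusted p = 1.07e-06).

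WRKY33, a factor of camalexin and pathogen responses, was at 83.5, 89.8 and 54.5 CPM in mock, at 47.1, 51.3 and 42.4 in salt, at 22.3, 21.3 and 24.03 in the mannitol control and at 87.3, 62.4 and 68.5 in mannitol. For WRKY33 all 3 mock libraries lay above all 3 of the mannitol control, and all 3 salt libraries lay below all 3 of mannitol, and the difference was -2.37 ± 0.25 (edgeR adjusted p = 4.06e-05). WRKY70, a factor of salicylic acid signalling, was at 40.7, 60.1 and 19.2 CPM in mock, at 8.78, 8.01 and 4.72 in salt, at 1.301, 1.71 and 0.684 in the mannitol control and at 8.39, 2.65 and 4.17 in mannitol. It gave -4.44 ± 0.83 (edgeR adjusted p = 0.00462), and salt lowered it while mannitol raised it. WRKY57, linked to drought tolerance, and WRKY48 were positive at 1.86 ± 0.18 (edgeR adjusted p = 5.27e-06) and 1.67 ± 0.36 (edgeR adjusted p = 0.00492). FRK1, a receptor kinase widely used as a flagellin marker, rose in both treatments and missed the call at -1.06 ± 0.39 (edgeR adjusted p = 0.0752). It was called without salt A, with DESeq2's Wald test and with the replicate letter as a block.

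Hypoxia genes followed the same direction in a smaller number. Of 15 tested, 4 were negative (26.7%, against 4.06% of all genes), with median responses of -0.62 to salt and 0.69 to mannitol. The entries HUP7, HUP9, HUP26, HUP29, HUP32, HUP36 and HUP43 found no locus and were left out. PCO1, an oxygen-sensing cysteine oxidase, was at 15.4, 14.3 and 33.2 CPM in mock, at 6.44, 4.74 and 1.18 in salt, at 1.71, 2.66 and 1.37 in the mannitol control and at 3.21, 3.74 and 4.74 in mannitol. In PCO1 all 3 mock libraries lay above all 3 of the mannitol control, and salt and mannitol overlapped, and the difference was -3.395 ± 0.74 (edgeR adjusted p = 0.00864). HRE1, a hypoxia ethylene response factor, gave -2.39 ± 0.71 (edgeR adjusted p = 0.0414) and lost its call without any 1 of mannitol control A2, mannitol control B2, mannitol control C2, mannitol A, mannitol B, mannitol C, mock A, salt A, salt B and salt C (highest adjusted p = 0.127). ADH1, alcohol dehydrogenase, rose in both and was not called, at -1.17 ± 0.61 (edgeR adjusted p = 0.233). The count fell to 1 or 2 in 10 of the 12 fits without a library, all but those without mock A or mock B, and 1 was positive without mock C. Glucosinolate genes were split, 4 positive (9.52%, against 5.23% of all genes) and 5 negative (11.9%, against 4.06%) of 42. MYB51, a regulator of the indole branch, was negative at -3.25 ± 0.36 (edgeR adjusted p = 6.31e-05), and NAI1, a regulator of the ER bodies that store PYK10, positive at 2.29 ± 0.14 (edgeR adjusted p = 7.04e-08). Without mock B, 8 were positive.

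Compatible solutes, which balance the osmotic pressure inside cells, gave 6 positive (18.8%, against 5.23% of all genes) and 7 negative (21.9%, against 4.06%) of 32. P5CS1, the first enzyme of proline synthesis, was at 39.4, 41.9 and 43.2 CPM in mock, at 579, 556 and 596 in salt, at 96.5, 96.7 and 99.7 in the mannitol control and at 727, 899.6 and 753 in mannitol. It rose in both treatments, and its difference of 0.77 ± 0.12 (edgeR adjusted p = 0.000429) was under the size required. ERD5, the proline dehydrogenase that breaks proline down, was at 1241, 621 and 1260.2 CPM in mock, at 259, 263 and 142 in salt, at 252, 228 and 137 in the mannitol control and at 219, 118 and 177 in mannitol. Its mock libraries were far above all others and its difference was -1.97 ± 0.54 (edgeR adjusted p = 0.032), with the call lost without any 1 of mannitol control B2, mannitol control C2, mannitol A, mannitol C, mock A, mock C, salt A and salt C (highest adjusted p = 0.0787). DIN10, of the raffinose synthase family, was likewise high in mock, at 2206, 781 and 2009 CPM against 123, 109 and 50.4 in the control, and gave -4.105 ± 0.72 (edgeR adjusted p = 0.00433). Galactinol synthases, which start raffinose synthesis, went the other way. GOLS4 gave 3.55 ± 0.76 (edgeR adjusted p = 0.00924), with the call lost without mock C (highest adjusted p = 0.0535). It was at 0.154 to 1.07 CPM in mock, 46.4 to 80.6 in salt, 12.7 to 26.1 in the control and 204 to 225 in mannitol. All salt libraries of GOLS4 thus lay below all mannitol libraries, and its mock level was near the floor. GOLS3, also called positive, held too few reads in mock for a size, at 0.154 to 0.613 CPM in mock, 2.72 to 6.79 in salt, 3.88 to 5.26 in the control and 2.21 to 3.005 in mannitol. GOLS2 likewise lay at 0 to 1.38 CPM in mock, and was at 127 to 174 in salt, 0.989 to 2.195 in the control and 148 to 209.7 in mannitol, with no call on the difference except without mock B. Trehalose phosphate synthase homologues TPS8 and TPS11 were negative at -2.59 ± 0.43 (edgeR adjusted p = 0.00269) and -2.36 ± 0.45 (edgeR adjusted p = 0.00513).

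Sugar transport and cleavage had 5 positive (11.6%, against 5.23% of all genes) and 2 negative (4.65%, against 4.06%) of 43 tested. The positive count fell to 3 without any 1 of mannitol control A2, mannitol control B2, mannitol control C2, mannitol B, mannitol C, mock C, salt A and salt B. The negative count was 4 without mock B and 1 without salt C. SWEET14, a sugar exporter, was at 0.154, 0.9199 and 0.154 CPM in mock, at 15.6, 15.5 and 19.6 in salt, at 1.71, 2.73 and 2.13 in the mannitol control and at 5.802, 5.57 and 7.52 in mannitol. Here all 3 mock libraries lay below all 3 of the mannitol control, and all 3 salt libraries lay above all 3 of mannitol, and the difference was called positive, with too few reads in mock for a size. SWEET2, which stores sugar in root vacuoles, was negative at -1.71 ± 0.31 (edgeR adjusted p = 0.00296). Sucrose synthase SUS1 rose nearly alike in both, with a salt response of 3.502 ± 0.23 and a mannitol response of 3.51 ± 0.23 and a difference of -0.01 ± 0.30 (edgeR adjusted p = 0.989).

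**Figure D4:**
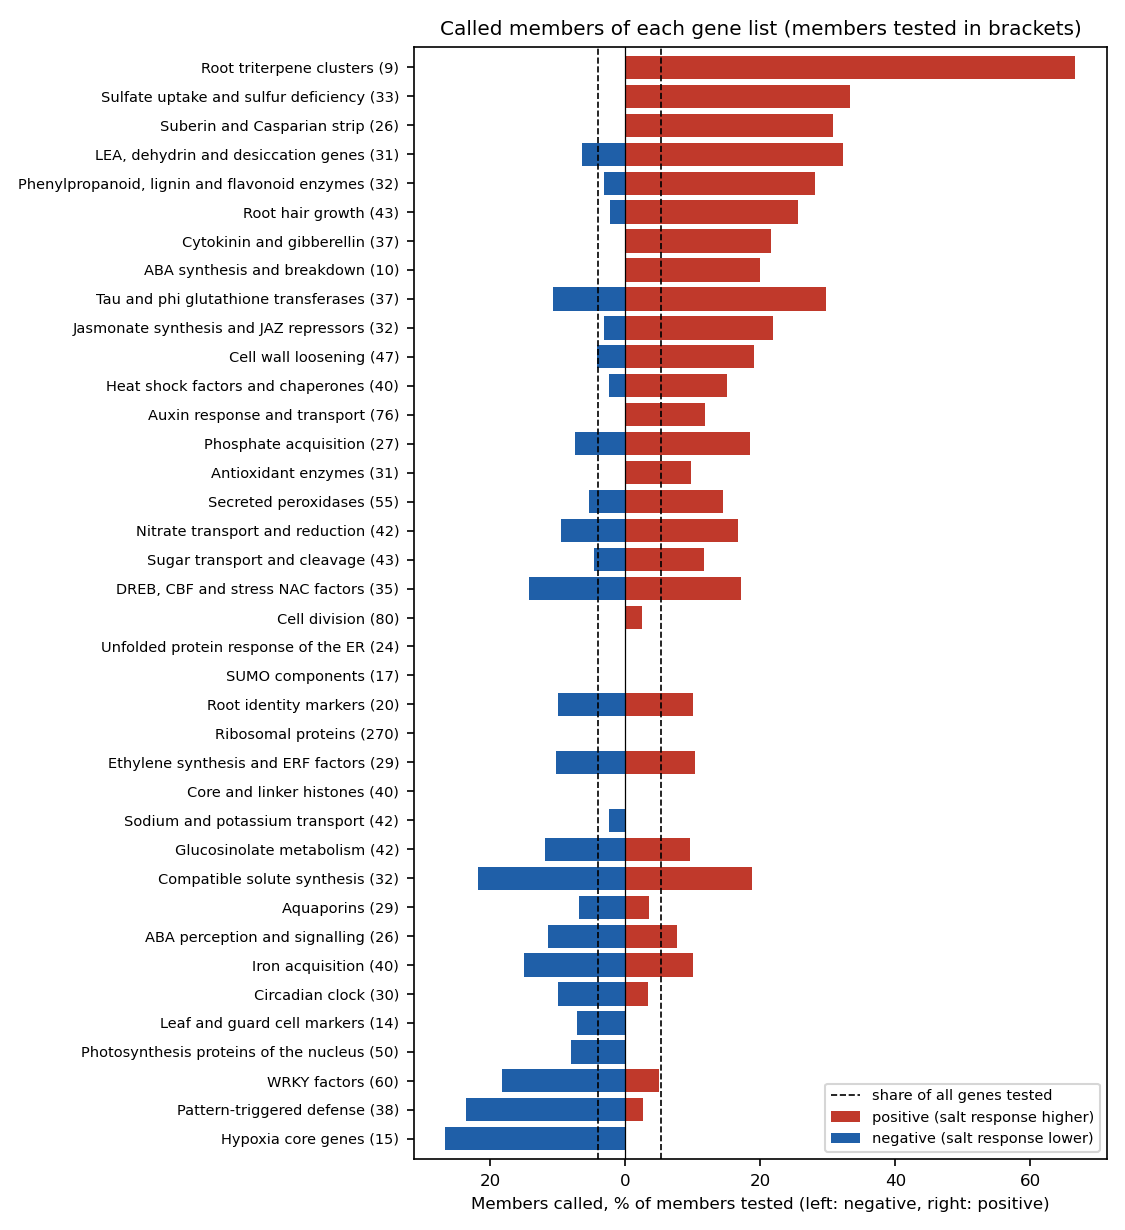
For each gene list, bars give the percentage of tested members called positive (right) and negative (left), with the percentages over all genes, 5.23 and 4.06, as reference lines. Triterpene, sulfur and suberin genes lie far to the positive side, and hypoxia, defense and WRKY genes to the negative side.

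Ion transport was nearly free of calls. Of 42 genes of sodium and potassium transport, 1 was negative (2.38%, against 4.06% of all genes) and edgeR called 0 positive, as did DESeq2, which called 2 negative. In either direction 15 passed an unadjusted edgeR p of 0.05. At any size 10 passed the adjusted p of 0.05, against 3778 of all 19363 genes, so the size required kept the others from a call. There were 2 negative calls without any 1 of mannitol control C2, mannitol B, mannitol C, mock B, salt A, salt B and salt C, and 1 positive call without mock B. The medians were 0.17 in salt and 0.27 in mannitol. SOS1, the plasma membrane sodium exporter, was at 35.96, 34.7 and 33.2 CPM in mock, at 45.2, 42.9 and 41.7 in salt, at 36.4, 35.5 and 36.4 in the mannitol control and at 33.98, 28.02 and 32.2 in mannitol. In SOS1 the untreated groups overlapped, and all 3 salt libraries lay above all 3 of mannitol, and its difference of 0.53 ± 0.12 (edgeR adjusted p = 0.00691) passed the test but not the size required. NHX1, the vacuolar exchanger, rose in salt and gave 0.51 ± 0.15 (edgeR adjusted p = 0.0235).

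SOS3, the calcium sensor of the pathway, was at 36.3, 35.6 and 39.2 CPM in mock, at 44.6, 41.5 and 37.2 in salt, at 27.7, 25.7 and 30.7 in the mannitol control and at 67.97, 59.1 and 55.2 in mannitol. It rose in mannitol, with a salt response of 0.15 ± 0.10 and a mannitol response of 1.11 ± 0.10, and its difference of -0.97 ± 0.15 (edgeR adjusted p = 0.00027) fell just short of the size. SOS3 passed that size without any 1 of mannitol control C2, mannitol B, mannitol C, salt A and salt B. It also passed with all 15 libraries, with thinned libraries and with upper-quartile normalization. The kinase SOS2 gave -0.703 ± 0.20 (edgeR adjusted p = 0.0206). HKT1, which removes sodium from the xylem, was at 2.16, 2.15 and 2.46 CPM in mock, at 1.05, 1.47 and 1.42 in salt, at 17.3, 18.2 and 18.5 in the mannitol control and at 6.84, 8.03 and 5.07 in mannitol. Its untreated levels did not overlap, its level in every salt library lay below every mannitol library, and its difference was 0.65 ± 0.32 (edgeR adjusted p = 0.188). AVP1, the proton pump of the vacuole, gave -0.01 ± 0.11 (edgeR adjusted p = 0.951). The called gene was CNGC10, a cation channel, at -1.81 ± 0.19 (edgeR adjusted p = 1.34e-05). Its means were 72.03 CPM in mock, 38.5 in salt, 15.6 in the mannitol control and 29.6 in mannitol, with the wider gap between the untreated groups.

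Hormone genes other than those of ABA were mostly positive where called. Auxin response and transport had 9 positive genes of 76 (11.8%, against 5.23% of all genes), all of those called, and 1 negative without salt C. GH3.17, which conjugates auxin to glutamate, was at 19.8, 21.9 and 15.5 CPM in mock, at 83.7, 91.01 and 97.3 in salt, at 67.6, 59.8 and 62.4 in the mannitol control and at 54.2, 51.7 and 51.8 in mannitol. Its difference was 2.54 ± 0.15 (edgeR adjusted p = 6.44e-08). The auxin synthesis enzymes YUC5 and YUC8 had their gap between the treated groups. YUC8 was at 10.03, 10.7 and 9.98 CPM in mock, at 29.6, 30.02 and 28.3 in salt, at 9.02, 6.22 and 9.51 in the mannitol control and at 9.95, 12.3 and 8.09 in mannitol, with a difference of 1.22 ± 0.24 (edgeR adjusted p = 0.002), and YUC5 gave 2.34 ± 0.46 (edgeR adjusted p = 0.002). Cytokinin and gibberellin genes had 8 positive of 37 (21.6%), again all of those called, and 1 negative without mannitol control B2 or mock B. ARR7, a cytokinin response regulator, gave 1.62 ± 0.25 (edgeR adjusted p = 0.000307), and the DELLA repressor RGL2 1.7 ± 0.23 (edgeR adjusted p = 9.99e-05).

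Jasmonate synthesis and JAZ repressors had 7 positive (21.9%, against 5.23% of all genes) and 1 negative (3.12%, against 4.06%) of 32. AOC2, an allene oxide cyclase, was at 0, 0.46 and 0.2303 CPM in mock, at 5.27, 11.6 and 5.43 in salt, at 0.976, 0.683 and 0.989 in the mannitol control and at 1.14, 0.365 and 1.31 in mannitol. It was called positive and rose in salt, but its mock libraries held too few reads for a size. CYP94B1, which inactivates jasmonate, gave 3.15 ± 0.26 (edgeR adjusted p = 6.35e-06), and CYP94C1, of the same route, the opposite sign at -1.37 ± 0.38 (edgeR adjusted p = 0.0187), a call lost without mannitol control B2 (highest adjusted p = 0.0527), when 0 were negative. The positive count fell to 4 without mannitol control C2, mannitol B or mock C. Ethylene synthesis and ERF factors had 3 of each sign out of 29 (10.3% each), with 5 negative without salt A and 5 positive without mock B. ACS7, an enzyme of ethylene synthesis, was at 4.17, 3.99 and 3.99 CPM in mock, at 43.8, 43.6 and 32.8 in salt, at 8.46, 8.54 and 7.07 in the mannitol control and at 20.3, 18.3 and 13.5 in mannitol. For ACS7 all 3 mock libraries lay below all 3 of the mannitol control, and all 3 salt libraries lay above all 3 of mannitol, and the difference was 2.2 ± 0.25 (edgeR adjusted p = 2.58e-05). ERF6 was negative at -2.71 ± 0.25 (edgeR adjusted p = 4.1e-06). ORA59, a factor where jasmonate and ethylene meet, was at 0 in all 3 salt libraries and at 0.414, 0.548 and 0.572 CPM in mannitol, from untreated levels of 1.08, 0.613 and 2.303 and 1.14, 1.23 and 1.44.

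Growth and housekeeping lists showed few or no calls. Cell division had 2 positive of 80 (2.5%, against 5.23% of all genes), the inhibitors KRP6 and KRP2 at 1.21 ± 0.25 (edgeR adjusted p = 0.00301) and 1.04 ± 0.19 (edgeR adjusted p = 0.00139). KRP6 lost its call without salt B and KRP2 without any 1 of mannitol control B2, mannitol A and salt C, each leaving 1, and 1 gene was negative without mannitol C or salt C. edgeR and DESeq2 each called 0 of 40 histones, 270 ribosomal proteins, 24 genes of the unfolded protein response and 17 SUMO components. In edgeR 14, 33, 8 and 3 of these passed an unadjusted p of 0.05. The adjusted p of 0.05 was passed at any size by 8, 12, 3 and 1, against 3778 of all 19363 genes, all of them under the size required. The 17 leave out DeSI1, DeSI2a, DeSI2b, DeSI3a, DeSI3b, DeSI4a and DeSI4b, whose names found no locus in the annotation used here. SAE1b was left out because its name matched more than 1 locus. The paper does list a locus for each of these DeSI proteases, so the SUMO count is incomplete. Of the 17, 1 was positive without any 1 of mannitol control B2, mannitol C, mock A and salt C. The SUMO ligase SIZ1 was at 118, 111 and 113 CPM in mock, at 131, 126 and 114 in salt, at 94.3, 89.8 and 92.5 in the mannitol control and at 124, 114 and 114 in mannitol, with a difference of -0.22 ± 0.10 (edgeR adjusted p = 0.169). Photosynthesis genes had 4 negative of 50 (8%, against 4.06% of all genes) at low levels, and 12 without salt A but 2 without mannitol control C2, mannitol B, mock C or salt C. The root markers, unlike the growth lists, had 2 of each sign of 20 (10% each, against 5.23% positive and 4.06% negative). The leaf markers had 1 negative of 14 (7.14%), with 13 of the 14 differences below 0 and a median of -0.93. The leaf count was 7 without salt A, 1 without mannitol B, mock A or salt B, and 0 without any other library. The median salt response of photosynthesis genes was -0.64.

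**Figure D5:**
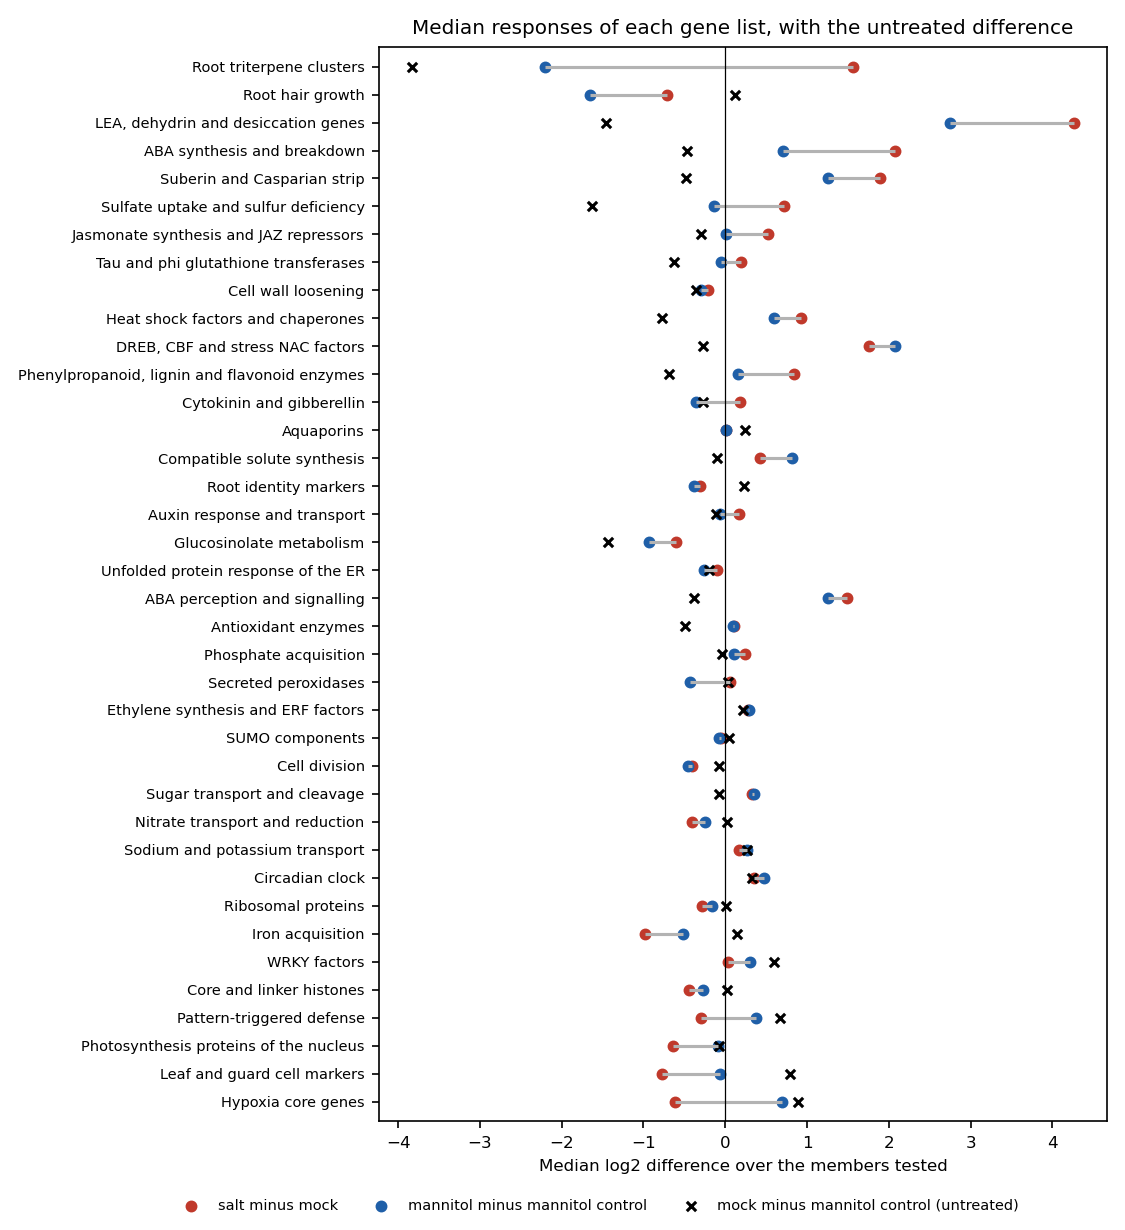
Each row is a gene list, with its median log2 salt response and mannitol response as circles and the median log2 difference of mock and mannitol control as a cross. The LEA list has the highest responses, 4.26 in salt and 2.75 in mannitol, and the triterpene list has the widest gap, at 1.56 and -2.202.

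Among called genes with a mean of at least 5 CPM and a mean count over 3 in every group, those with the largest differences included RNS1, of the phosphate list, and several in no list. RNS1, a secreted ribonuclease, was at 2.47, 1.53 and 0.768 CPM in mock, at 159, 178 and 128 in salt, at 42.5, 37.4 and 23.7 in the mannitol control and at 71.4, 47.6 and 56.1 in mannitol. In RNS1 all 3 mock libraries lay below all 3 of the mannitol control, and all 3 salt libraries lay above all 3 of mannitol, and the difference was 6.02 ± 0.46 (edgeR adjusted p = 1.46e-05). AT4G37700, an uncharacterised protein, and AT1G45015, with a lipid recognition domain, were positive at 6.0 ± 0.45 (edgeR adjusted p = 5.33e-07) and 5.33 ± 0.50 (edgeR adjusted p = 1.05e-05). AT4G37700 rose in salt and fell in mannitol, while AT1G45015 fell in mannitol, where it was at 0.0913 to 1.14 CPM against 20.1 to 25.4 in the control.

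With the same limit on level, and a mean count over 3 in every group, the largest negative difference was that of CYP706A1, a cytochrome P450, at 32.6, 17.9 and 12.7 CPM in mock, at 6.09, 5.69 and 3.54 in salt, at 0.569, 0 and 0.608 in the mannitol control and at 15.96, 14.97 and 14.4 in mannitol. Salt lowered it and mannitol raised it, with a difference of -7.29 ± 0.69 (edgeR adjusted p = 3.74e-05), and 39.9% of its exonic 100-base windows occur elsewhere in the genome, so its reads are not certain to be its own. DIN2, a beta-glucosidase induced by darkness and lack of sugar, was at 24.4, 13.8 and 16.2 CPM in mock, at 33.1, 45.8 and 15.3 in salt, at 0.6504, 0 and 0.304 in the mannitol control and at 61.2, 26.5 and 55.3 in mannitol. SEN1, a dark-induced senescence gene, was at 77.2, 18.4 and 61.8 CPM in mock, at 16.6, 19.1 and 13.1 in salt, at 0.976, 0.888 and 0.989 in the mannitol control and at 19.7, 8.76 and 24.3 in mannitol. Differences were -6.44 ± 0.98 (edgeR adjusted p = 0.00174) and -5.89 ± 0.89 (edgeR adjusted p = 0.00167), and in both genes the mannitol control stood at or under 1 CPM while the other 3 groups were higher.

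TCH3, a touch-induced calmodulin-like protein, was at 70.5, 44.5 and 43.2 CPM in mock, at 27.99, 27.3 and 18.4 in salt, at 1.95, 1.503 and 1.75 in the mannitol control and at 40.1, 32.6 and 35.4 in mannitol. In TCH3 all 3 mock libraries lay above all 3 of the mannitol control, and all 3 salt libraries lay below all 3 of mannitol, and the difference was -5.46 ± 0.33 (edgeR adjusted p = 2.71e-07). Of its exonic bases 20.2% overlap another locus, which nonstranded reads cannot separate. GSTF14, a phi glutathione transferase, was at 24.7, 19.3 and 27.1 CPM in mock, at 0.234, 1.26 and 0.708 in salt, at 1.87, 2.66 and 1.83 in the mannitol control and at 3.42, 2.46 and 2.45 in mannitol, and its difference was -5.33 ± 0.45 (edgeR adjusted p = 1.47e-06). AT5G25260, a membrane protein of the SPFH type, and AT4G11170, a resistance protein of the TIR-NBS-LRR class, gave -6.98 ± 1.98 (edgeR adjusted p = 0.0342) and -5.33 ± 1.46 (edgeR adjusted p = 0.0308). Both varied widely among mock libraries, AT5G25260 from 9.83 to 59.8 CPM, and AT4G11170 from 5.68 to 50.4, and 20.1% of the exonic bases of AT5G25260 overlap another locus. AT5G25260 lost its call without any 1 of mannitol control A2, mannitol control B2, mannitol control C2, mannitol A, mannitol B, mannitol C, salt A, salt B and salt C (highest adjusted p = 0.127), and AT4G11170 without any 1 of mannitol control A2, mannitol control B2, mannitol control C2, mannitol A, mannitol C, salt A, salt B and salt C (highest adjusted p = 0.0994).

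A separate set of genes was chosen for similar untreated levels, with untreated groups within 0.5 on the log2 scale. Given that choice and the size of their differences, a gap of at least 1 had to lie between the treated groups only. AT1G05650, a pectin lyase-like wall protein, was at 30.9, 39.7 and 38.6 CPM in mock, at 61.9, 73.5 and 96.3 in salt, at 42.3, 34.4 and 38.6 in the mannitol control and at 8.19, 11.96 and 7.35 in mannitol. It rose in salt and fell in mannitol, and its difference was 3.15 ± 0.27 (edgeR adjusted p = 6.35e-06). AT1G19900, related to glyoxal oxidase, was at 21.9, 31.6 and 29.9 CPM in mock, at 52.3, 51.4 and 35.8 in salt, at 34.3, 33.1 and 28.3 in the mannitol control and at 6.53, 7.12 and 4.58 in mannitol. It gave 3.14 ± 0.26 (edgeR adjusted p = 2.76e-06), with a salt response of 0.74 ± 0.17 and a mannitol response of -2.401 ± 0.20. AT1G06120, a fatty acid desaturase, fell in both treatments and further in mannitol, at 2.88 ± 0.38 (edgeR adjusted p = 8.1e-05). AT2G43870, another pectin lyase-like protein, was at 2.62, 7.21 and 4.15 CPM in mock, at 59.7, 67.4 and 51.1 in salt, at 6.504, 5.33 and 5.93 in the mannitol control and at 12.2, 13.9 and 13.2 in mannitol, and its difference was 2.55 ± 0.30 (edgeR adjusted p = 3.98e-05).

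On the negative side of this set, AT1G09310, a protein of unknown function, was at 2.47, 2.3 and 3.07 CPM in mock, at 3.86, 0.843 and 1.299 in salt, at 2.85, 1.98 and 2.05 in the mannitol control and at 18.03, 11.8 and 20.1 in mannitol. In AT1G09310 the untreated groups overlapped, and all 3 salt libraries lay below all 3 of mannitol, and the difference was -3.301 ± 0.57 (edgeR adjusted p = 0.00112). AT1G11330, a lectin receptor kinase, was at 23.1, 14.6 and 26.3 CPM in mock, at 25.6, 26.02 and 20.2 in salt, at 17.3, 15.7 and 15.97 in the mannitol control and at 61.3, 61.4 and 53.5 in mannitol. It rose in mannitol, with a salt response of 0.14 ± 0.17 and a mannitol response of 1.85 ± 0.16 and a difference of -1.703 ± 0.23 (edgeR adjusted p = 0.000127). UBC17, a ubiquitin-conjugating enzyme, fell in salt and gave -2.08 ± 0.32 (edgeR adjusted p = 0.000342), and MEE9 gave -1.81 ± 0.28 (edgeR adjusted p = 0.00035). BGAL7, a beta-galactosidase, rose in both and further in mannitol, at -2.11 ± 0.54 (edgeR adjusted p = 0.012), and lost its call without mock A (adjusted p = 0.0527).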

How the data were processed

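The authors deposited whole-number counts of reads per gene, without normalization, for 24618 genes, 23448 of them protein-coding. According to the methods, nonstranded libraries of polyadenylated RNA were checked with FastQC, trimmed with Trimmomatic, mapped to Araport11, cleared of duplicates with Picard and counted with HTSeq. Tool versions are not given in the sources used here. Nonstranded reads cannot separate overlapping genes, and the discarding of duplicates can lower high levels. The other columns were matched to samples by name, and 0 columns were left unassigned. The mannitol control columns are headed differently from their sample titles. They were taken as the mannitol control because it was the only untreated group not yet matched, so this placement is an inference.

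The 12 libraries were fitted in edgeR 4.0.16 (R 4.3.3) with 1 mean per group, TMM factors, a robust quasi-likelihood fit and p-values adjusted by Benjamini-Hochberg. Low genes were removed by filterByExpr at a minimum count of 10. Gene names and positions came from the RefSeq annotation of TAIR10.1. Totals of 6094503 to 13943645 counts set the precision, and a count interval covers counting error only. Tables were handled with limma 3.58.1 and Python.

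The members and the 38 gene lists were chosen with earlier results of these data known. Before any count, 30 entries were left out because their name did not match a single locus. List members were named by rule. In each list these were up to 2 called members per sign with the largest difference, plus members whose role is central. Across all genes they were the 8 per sign with the largest difference among called genes with a mean of at least 5 CPM and a mean count over 3 in every group, and the 5 per sign whose untreated groups differed by under 0.5. No set test was run. LEA, triterpene and other list counts are descriptions beside the percentage of all genes.

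Alternatives used DESeq2 1.42.0 (its Wald test, or its size factors within edgeR), normalization to the upper quartile, all genes unfiltered, only genes with 10 counts in each library, no threshold on size, a linear fold of 1.5, replicate letters as a block, the flagellin libraries added to make 15, libraries thinned to 6094503 counts, and 12 fits that each dropped 1 library. The fit was tested on simulated data.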

Additional observations from a re-analysis of the deposited data

Results flagged for a closer look

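Responses to NaCl and mannitol were compared by a direct test of their difference, and every result here passed it with all 12 libraries. Of the 26 genes named here, 4 lost their call in at least 1 alternative, namely AT5G25260, AT4G11170, EXT13 and BGAL7. The difference was positive in 1013 genes and negative in 786. Among called genes with a mean of at least 5 CPM and a mean count over 3 in every group, those with the largest positive log2 differences were MRN1 at 6.91, CYP705A12 at 6.38, THAS1 at 6.35, AT5G47980 at 6.34, RNS1 at 6.02, AT4G37700 at 6.0, CYP705A5 at 5.79 and AT1G45015 at 5.33. The size for MRN1 rests on a mock level near the floor. Within the same limits the largest negative ones were CYP706A1 at -7.29, AT5G25260 at -6.98, DIN2 at -6.44, CYP81F2 at -6.18, SEN1 at -5.89, TCH3 at -5.46, GSTF14 at -5.33 and AT4G11170 at -5.33. Among genes with similar untreated levels, EXT13 was at 4.84, AT1G05650 at 3.15, AT1G19900 at 3.14, AT1G06120 at 2.88 and AT2G43870 at 2.55. On the negative side of these were AT1G09310 at -3.3, BGAL7 at -2.11, UBC17 at -2.08, MEE9 at -1.81 and AT1G11330 at -1.7.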

How the results depend on the processing

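Of the 183 genes followed one by one, 135 were called and 0 of these changed sign under an alternative, while 14 of the 48 uncalled ones did. The median difference over all genes, 0.02, lay between -0.0278 and 0.0328, below 0 with both other normalizations. The 1799 called differences became 1776 with DESeq2 size factors, 1779 with upper-quartile normalization, 1761 without a count filter, 1777 with all 15 libraries, 1618 with thinned libraries and 1877 with DESeq2's Wald test, and the share of positive calls stayed between 51.4% and 59% against 56.3%. Leaving out 1 library gave 1594 to 1972 in all, 848 to 1153 positive and 683 to 860 negative, with 216 to 282 on the treated side, 842 to 1080 on the untreated side, 204 to 278 in both and 305 to 373 in neither. It gave 3360 to 3807 for salt, 3049 to 3342 for mannitol, 2478 to 2820 between untreated and 1392 to 1626 between treated groups. With the replicate letter as a block 1719 were called, 962 positive and 757 negative, and EXT13, HAI1, PYL5, PYL6, ERD5, PRP1, PCO1 and HRE1 were among the genes that lost their call. Same-letter libraries deviated together with correlations of only -0.039 to 0.070, so the letters were not taken to pair the samples. Requiring 10 counts in every library left 1368 calls, 103 with a gap on both sides, and 2305 for salt, 2023 for mannitol, 1679 between untreated and 842 between treated groups. Without a fold threshold there were 3778 calls, 2229 positive and 1549 negative, 2040 of them with a gap on neither side, and 9069 for salt, 9459 for mannitol, 7661 between untreated and 5809 between treated groups. With a linear fold of 1.5 as the threshold there were 2943, 1710 and 1233, 1238 with neither gap, and 5741, 5743, 4539 and 3123. Of the 135 called genes, 100 kept their call in every alternative that gave a value and 35 lost it in at least 1, and 12 uncalled genes gained one. Of the list counts, 1422 stayed within 1.5 times and 250 did not. Depth limits genes near 3 counts, which was 0.205 to 0.463 CPM, and 2 mock libraries were the shallowest.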

Other observations

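Nutrient and clock genes were called in both directions. Over all genes 5.23% were positive and 4.06% negative. The positive and negative shares were 16.7% and 9.52% for nitrate, 18.5% and 7.41% for phosphate and 10% and 15% for iron. They were 3.45% and 6.9% for aquaporins and 3.33% and 10% for the clock, which rest on few genes. Of 42 genes of nitrate transport and reduction, 7 were positive and 4 negative. NRT1.1, the dual-affinity nitrate transporter, was at 289, 574 and 297 CPM in mock, at 1184, 1084 and 1259 in salt, at 319, 297 and 299 in the mannitol control and at 433, 245 and 282 in mannitol. Its log2 difference was 1.54 ± 0.39 (edgeR adjusted p = 0.0205), and all salt libraries lay above all mannitol libraries. The ammonium transporter AMT1;3 fell in both treatments and further in mannitol, at 1.79 ± 0.17 (edgeR adjusted p = 4.86e-06). NRT1.8, which takes nitrate out of the xylem, was negative at -4.41 ± 0.58 (edgeR adjusted p = 0.000371). Of 27 phosphate genes 5 were positive and 2 negative, and the phosphate importer PHT1;4 gave 1.998 ± 0.26 (edgeR adjusted p = 0.000274). Of 40 iron genes 4 were positive and 6 negative, but the positive count fell to 1 or 2 in 8 of 12 fits without a library and the negative count to 3 without mannitol control B2 or salt C. Aquaporins had 1 positive and 2 negative of 29, with 2 positive without mannitol control A2 or salt A. The clock list had 1 positive and 3 negative of 30, with 5 negative without any 1 of mannitol control A2, mock B, salt A and salt B, 0 positive without salt A and 2 without mock B.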
